A study of Mus musculus with 2 samples.

Results

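The mitosis and spindle genes examined here are 43 genes that cells transcribe mainly in the G2 and M phases of the cell cycle. They were chosen by name, for their place in the cell division machinery, with earlier results of these data known. The shares of all genes given beside their counts are therefore a description and not a test of the set. All 43 were on the array, among 37003 gene names in all. The epithelial cells of the submandibular gland, a major salivary gland, were collected with magnetic beads that bind the surface protein EpCAM (CD326). The donors were female C57BL/6 mice (C57BL/6N in the methods), 9 weeks old in the young and 24 months old in the aged sample. The Cy3-labelled total RNA of each age went onto 1 Agilent mouse array, so there was 1 sample per age and no treatment. The methods state that the young mice came from a commercial breeder and the aged mice from the institute's own colony, and that the bead selection left a minority of other cells. Age, mouse source and individual therefore cannot be told apart, and no difference has a replicate check or a p-value.

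A cell entering mitosis activates Cdk1 through B-type cyclins, condenses its chromosomes, attaches them to the spindle at kinetochores and, once the spindle checkpoint is satisfied, degrades cyclins and securin through the anaphase-promoting complex. Most genes for these steps are silent in resting cells and are transcribed together in G2, when the MuvB complex, which binds the cell cycle genes homology region in their promoters through Lin54, works with Mybl2 and Foxm1. In an adult salivary gland most acinar and duct cells are at rest, and cell division maintains the epithelium at a low rate.

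The software's processed intensity of a spot, called signal here, was divided by the 75th percentile of its array before the ages were compared. The young array had a 75th percentile of 256 and the aged array one of 198, so equal signals mean a slightly higher level on the aged array. A gene is called measured on an array where its spot was marked well above background by the software. The lowest such signal was 14.1 (young) and 14.3 (aged), and 55.4% and 50.8% of the spots passed. Of all genes, 21346 were measured on at least 1 array and 18745 on both, with a median log2 difference (aged minus young) of 0.09 in the latter. For the 285 probes spotted at least 8 times, the median standard deviation of the log2 difference over spots was 0.033, which covers the spread within an array and not that between mice.

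By any of their probes, 38 of the 43 genes (88.4%) were measured in the young sample and 16 (37.2%) in the aged sample. For all genes, the shares were 56.4% and 52.0%. The brightest probe of each gene, taken from here on unless another is named, was measured on both arrays for 15 of the genes, on the young array only for 23, and on the aged array only for Ndc80. The other 4, Bub1, Kif11, Kif2c and Kif4, were not measured on either array and have no fold. Genes measured on the young array only made up 9.91% of all 21346 genes, and those measured on the aged array only made up 2.27%.

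Of the 15 genes measured in both samples, 10 were at least 2-fold lower in the aged sample and none was 2-fold higher, against a background of 3.05% lower and 1.52% higher among all genes measured on both arrays. Their median log2 difference was -1.35, with quartiles of -3.15 and -0.54 and a range from -3.86 to 0.18. Of the 15 differences, 12 were below 0, as were 40.1% of all genes measured on both arrays. For the 23 genes measured in the young sample only, a lower limit of the fold was obtained by setting the young signal against the higher of the aged array's lowest measured signal and the probe's own aged value. This limit reached 2-fold for 20 of the 23, against 24.9% of all genes of this kind. Counted either way, 30 of the 39 genes with a value were at least 2-fold lower and none was higher, where the shares over all genes were 5.14% lower and 2.53% higher. By this rule, a gene measured on the young array only could be called lower but never higher. Such genes were 23 of the 39 here and 9.91% of all genes, so these shares compare unlike mixtures. With the normexp background correction, whose offset of 50 shrinks the differences of dim genes, 16 of the 39 genes were lower. The number over all genes was then 297 in place of 1098. In these cells, a smaller number of dividing cells and less RNA of these genes per cell cannot be told apart.

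**Figure D1:**
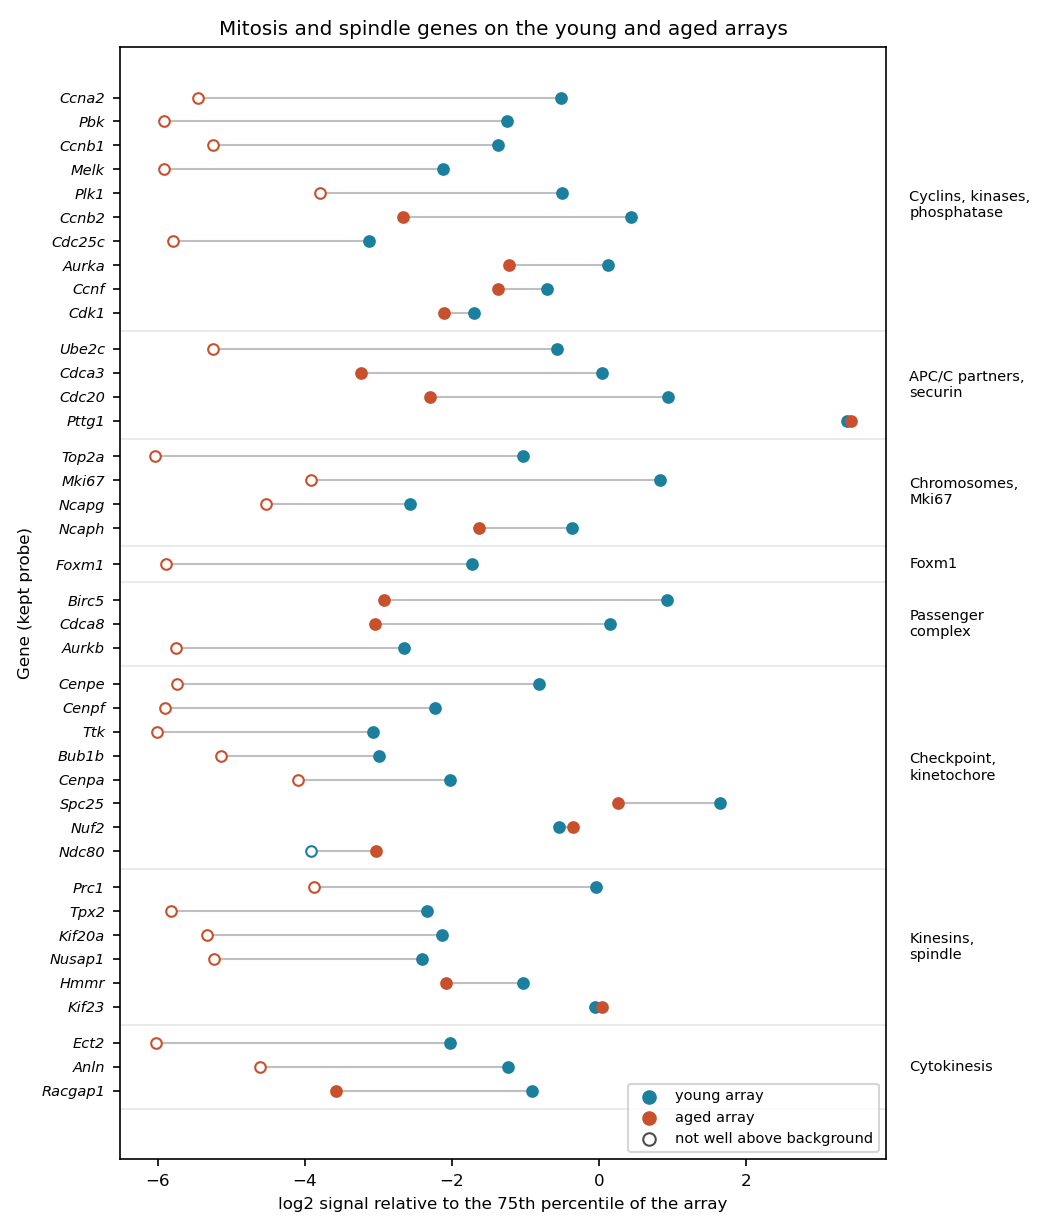
Signal relative to the 75th percentile of each array (log2, horizontal axis) of the 39 genes with a value, in the young and the aged sample, with 1 array per age. Filled points passed the software's mark for signal over background and open points did not. The points of 38 genes are filled in the young sample and those of 16 in the aged sample.

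Among the regulators of mitotic entry, the cyclins and their kinases, 7 of 10 were at least 2-fold lower in the aged sample. Ccnb2, a B-type cyclin that activates Cdk1, had a signal of 347 ± 34.8 (the error is the software's, for the spot) in the young and 31.2 ± 4.26 in the aged sample. It was 8.58-fold lower, a log2 difference of -3.10 ± 0.24, where the error is again that of the software and covers neither mice nor labelling. The main B-type cyclin, Ccnb1, had a signal of 98.8 in the young sample and was not measured in the aged sample (5.19), a fold of at least 5.35. Ccna2, the cyclin of S phase and mitotic entry, went from 179 to a background value of 4.53 and was at least 9.68-fold lower. All 3 cyclins that drive Cdk1 in G2 and mitosis were thus above background in the young sample, and Ccnb2 alone of them was above it in the aged sample.

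Ccnf, a cyclin that serves as the substrate receptor of a ubiquitin ligase and binds no Cdk, behaved otherwise. Its signal was 158 in the young and 76.5 in the aged sample, a log2 difference of -0.67 ± 0.21, and its other probes gave -0.25 and 0.50. Plk1, the kinase that promotes mitotic entry and spindle assembly, had a signal of 181 in the young sample and 14.2 in the aged sample, just short of the background mark, and was at least 9.83-fold lower. Aurka, the centrosomal Aurora kinase, was measured in both samples at 280 ± 28.1 and 84.9 ± 8.94 and was 2.55-fold lower (log2 -1.35 ± 0.21). Pbk, a kinase of dividing cells, had a signal of 108 in the young sample and only a substitute value, which the software writes where it can measure no signal, in the aged sample, at least 5.83-fold lower. Melk, another kinase of dividing cells, had a young signal of 58.8 and a substitute value in the aged sample, at least 3.19-fold lower. Cdc25c, the phosphatase that removes the inhibitory phosphates from Cdk1, was dim already in the young sample at 29.4, and its limit of 1.59-fold lower did not reach the threshold.

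The chromosomal passenger complex corrects faulty spindle attachments and later directs cytokinesis, and its 3 subunits among the 43 genes were each at least 2-fold lower in the aged sample. Birc5 (survivin) had a signal of 486 ± 48.7 in the young and 26 ± 4.11 in the aged sample. It was 14.5-fold lower (log2 -3.86 ± 0.27), the lowest difference among the 15 genes measured on both arrays. Cdca8 (borealin), the subunit that binds survivin, went from 286 ± 28.8 to 23.9 ± 4.15 and was 9.21-fold lower (log2 -3.20 ± 0.29). Aurkb, the kinase of the complex, was dimmer, at 40.8 in the young sample and a substitute value in the aged sample, at least 2.21-fold lower. As a lower limit set by a dim young signal, the fold of Aurkb cannot be ranked against those of the other subunits. Incenp, the scaffold of the complex and not one of the 43 genes, was measured at 506 and 152 and was 2.58-fold lower.

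The partners and targets of the anaphase-promoting complex were divided. Cdc20, the activator that brings substrates to the complex and that the spindle checkpoint holds back, had a signal of 490 ± 49.1 in the young and 40.1 ± 5.16 in the aged sample and was 9.44-fold lower (log2 -3.24 ± 0.24). Its second probe, at 264 and 61.9, gave a log2 difference of -1.72. Ube2c, the ubiquitin-conjugating enzyme of the complex, was measured in the young sample only, at 172 against 5.22, and was at least 9.31-fold lower. Cdca3, which takes part in the degradation of an inhibitor of mitotic entry, went from 265 ± 26.7 to 20.9 ± 4.21 and was 9.77-fold lower (log2 -3.29 ± 0.32). Pttg1 (securin), the inhibitor of separase and a substrate of the complex, stood apart with the highest signals of all these genes, 2665 in the young and 2142 in the aged sample, a log2 difference of 0.06 ± 0.20. Its second, dim probe gave 0.33, so neither probe of Pttg1 showed the decrease of Cdc20, Ube2c and Cdca3.

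At the kinetochore, 4 of 9 genes were at least 2-fold lower in the aged sample and 8 had a value. Spc25, a subunit of the Ndc80 complex, which binds kinetochores to microtubules, was bright in both samples, at 801 ± 80.2 and 237 ± 24.0, and was 2.61-fold lower (log2 -1.38 ± 0.21). Cenpe, the kinesin that carries chromosomes to the spindle equator, had a young signal of 145 and a substitute value in the aged sample, at least 7.88-fold lower. Cenpa, the histone H3 variant that marks centromeres, went from 63.1 to 11.6 and was at least 3.42-fold lower. Cenpf, a large protein of the outer kinetochore, went from 54.8 to a substitute value and was at least 2.97-fold lower. The checkpoint kinases Bub1b and Ttk were dim in the young sample, at 32.1 and 30.6, and their limits of 1.74-fold and 1.65-fold lower did not reach the threshold.

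The subunits of the Ndc80 complex did not behave alike. Ndc80 itself was the single gene measured in the aged sample only, with 17.0 ± 3.94 in the young and 24.1 ± 4.34 in the aged sample, close to background in both. As the signals stand it was 1.83-fold higher (log2 0.87 ± 0.42). Its limit is this same value and not a lower bound, since the young value lay above that array's lowest measured signal. Of all genes measured in the aged sample only, 52.6% had a limit of at least 2-fold, which Ndc80 did not reach. Nuf2, its direct partner, had a signal of 176 in the young and 155 in the aged sample by its brightest probe, a log2 difference of 0.18 ± 0.21. That probe carries no RefSeq transcript accession, and the Nuf2 probe that does went from 91.7 to 24.1, a log2 difference of -1.56 ± 0.30. For Nuf2, the direction therefore depended on the probe.

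Among the mitotic kinesins and spindle proteins, 5 of 9 genes were at least 2-fold lower and 6 had a value. Prc1, which bundles the microtubules of the central spindle, had a signal of 249 in the young and a background value of 13.5 in the aged, at least 13.5-fold lower. Kif20a, the kinesin that brings Plk1 and Aurkb to the central spindle, went from 58.1 to 4.92 and was at least 3.15-fold lower. Tpx2, the spindle assembly factor that activates Aurka, went from 50.7 to a substitute value and was at least 2.75-fold lower. Nusap1, a microtubule-bundling protein, went from 48.1 to 5.26 and was at least 2.60-fold lower. Hmmr, a spindle and hyaluronan-binding protein, was measured in both samples at 126 ± 13.0 and 46.7 ± 5.71 and was 2.08-fold lower (log2 -1.05 ± 0.23). Its difference lay closer to the threshold than its error, and it was -0.88 when the arrays were centred on their medians. Kif23, a kinesin of the centralspindlin complex, was at 246 in the young and 203 in the aged sample by its brightest probe, a log2 difference of 0.09 ± 0.21.

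The genes of cytokinesis were all lower in the aged sample. Racgap1, the partner of Kif23 in centralspindlin, was measured in both samples at 136 ± 13.9 and 16.6 ± 3.45 and was 6.34-fold lower (log2 -2.66 ± 0.33). Anln (anillin), a scaffold of the contractile ring, went from 109 to 8.08 and was at least 5.91-fold lower. Ect2, the exchange factor that activates RhoA at the division site, went from 63.1 to a substitute value and was at least 3.42-fold lower.

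The 4 genes of chromosome structure, which include the proliferation marker Mki67, were also all lower. Mki67, whose product coats mitotic chromosomes and is the usual stain for cycling cells, had a signal of 457 in the young and a background value of 13.1 in the aged sample. Its limit of at least 24.8-fold lower was the largest among all 43 genes. Top2a, the topoisomerase that untangles sister chromatids, went from 125 to a substitute value and was at least 6.77-fold lower, and its second measured probe was at least 3.07-fold lower. Ncaph, a subunit of condensin I, was measured in both samples at 198 ± 20.2 and 64.1 ± 7.36 and was 2.39-fold lower (log2 -1.26 ± 0.22). Ncapg, another subunit of condensin I, went from 43.3 to 8.54 and was at least 2.34-fold lower. The Ncapg probe with a RefSeq transcript accession went from 71.1 to a substitute value and was at least 3.85-fold lower. Foxm1, the transcription factor of G2 genes, had a young signal of 77.3 and a substitute value in the aged sample, and was at least 4.19-fold lower.

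**Figure D2:**
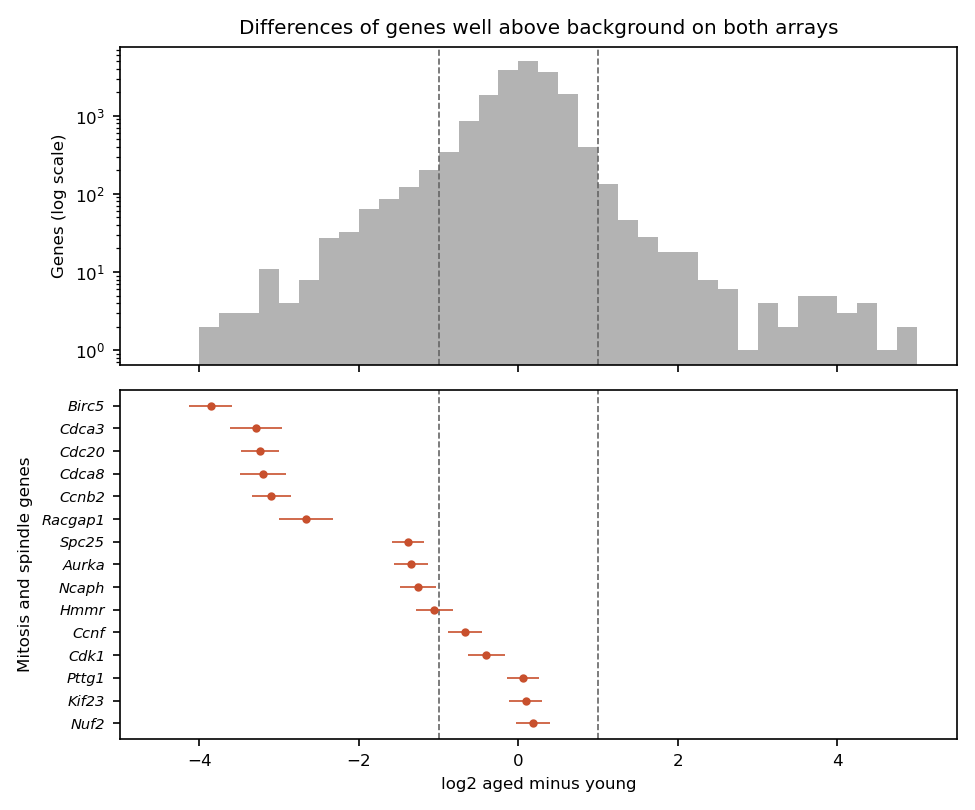
The upper panel counts all 18745 genes measured on both arrays by their log2 difference (aged minus young), on a log scale, and the lower panel gives the 15 mitosis and spindle genes measured on both arrays, with bars for the error computed by the scanner software. Dashed lines mark 2-fold. The 6 genes from Birc5 to Racgap1 lie between -3.86 and -2.66, and the 4 from Spc25 to Hmmr between -1.38 and -1.05.

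The differences of these 15 genes were unevenly spaced. The 6 genes Birc5, Cdca3, Cdc20, Cdca8, Ccnb2 and Racgap1 were more than 4-fold lower, and no further one was more than 3-fold lower, where 0.485% and 1.17% of all genes measured on both arrays passed these folds. The neighbours Cdca3, Cdc20, Cdca8 and Ccnb2 had differences closer to each other than their errors. Spc25, Aurka, Ncaph and Hmmr were 2.08- to 2.61-fold lower, and the errors of neighbours in this order overlapped too. By the brightest probes, no gene lay between Racgap1 (-2.66) and Spc25 (-1.38). This gap was gone with normexp, where Racgap1 was at -1.14 and Spc25 at -1.21, and the second probe of Cdc20 (-1.72) lay inside it. Ccnf, Cdk1, Pttg1, Kif23 and Nuf2 were less than 2-fold different.

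The 43 genes had 86 probes of 60 bases, of which 57 were measured on at least 1 array, and their probes allow the changes to be compared within a gene. Of the 20 probes measured on both arrays, 12 were at least 2-fold lower, against 2.8% of all such probes. The limit reached 2-fold for 27 of the 36 measured in the young sample only, against 21.1% of all such probes. Among the 16 genes with several measured probes, every probe was at least 2-fold lower for 6, namely Birc5, Ccna2, Cdc20, Top2a, Ncapg and Spc25. For 7 genes, at least 1 probe was 2-fold lower and another was not. For Ccna2, the second probe went from 133 to 3.21 and was at least 7.21-fold lower, close to the limit of the first. By any measured probe, a rule that makes a call easier, 32 of the 39 genes with a value were at least 2-fold lower. None was 2-fold higher, and the shares among all genes with a value were 6.36% lower and 3.19% higher.

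For 5 genes, Ttk, Ncapg, Cdk1, Kif23 and Nuf2, the brightest measured probe was not assigned to a RefSeq transcript in the files. Of the probes measured on both arrays, 12 of the 16 with a RefSeq transcript were at least 2-fold lower, with a median of -1.47, and none of the 4 with another accession was, with a median of -0.08. Over all probes measured on both arrays, these shares were 3.31% with a RefSeq transcript and 1.75% with another accession. Cdk1, the kinase at the centre of mitotic entry, had a signal of 78.5 in the young and 45.9 in the aged sample by its brightest probe, a log2 difference of -0.40 ± 0.23. The RefSeq probe of Cdk1 went from 44.0 to a substitute value and was at least 2.39-fold lower, and that of Kif23 went from 25.6 to 3.79 and was at least 1.39-fold lower. Both RefSeq probes are shown because they span an exon junction, so they read spliced RNA: on mm9, the 60 bases of the Kif23 probe extend over 1121 bases of chromosome 9 and those of the Cdk1 probe over 2410 bases of chromosome 10. The brightest probes, in contrast, lie in single blocks, at chr9:61770729-61770788 for Kif23 and chr10:68797987-68798046 for Cdk1. Whether these bright probes read the same transcripts was not tested.
Kif23, chr9:61767733-61768853, minus strand: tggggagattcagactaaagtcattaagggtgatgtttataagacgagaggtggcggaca
Cdk1, chr10:68805423-68807832, minus strand: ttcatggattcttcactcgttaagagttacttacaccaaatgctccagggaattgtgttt

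**Figure D3:**
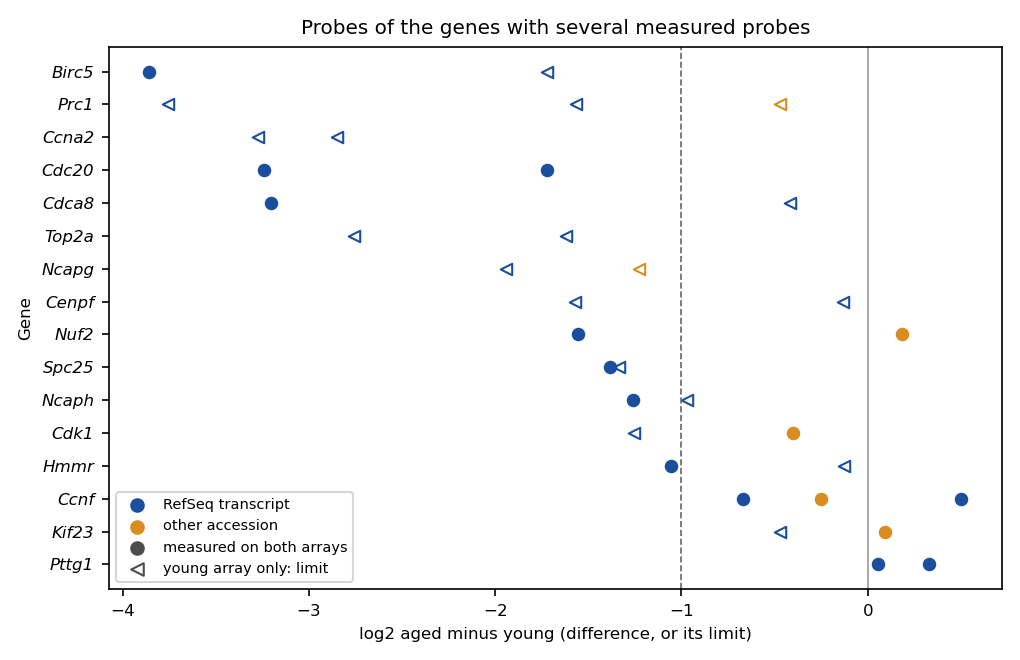
Log2 difference (aged minus young, horizontal axis) of each measured probe of the genes with more than 1 measured probe, 1 row per gene. Circles are probes measured on both arrays, open triangles are limits of probes measured on the young array only, and colour gives the kind of accession. The dashed line marks 2-fold, and the probes of Cdk1 and Nuf2 lie on both sides of it.

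The promoters of these genes were examined in the RefSeq sequences of GRCm38.p6, from 250 bases before to 50 bases after the transcription start, a property that played no part in choosing the genes. A window was given for 36 of the 43 genes and for 27025 genes in all. The cell cycle genes homology region was searched as TTTGAA or TTCGAA on both strands, and the box bound by NF-Y as CCAAT on both strands. TTTGAA or TTCGAA was present in 28 of the 36 promoters (77.8%), against 21.7% of all genes with a window. CCAAT was present in 27 (75%), against 41.1%, and both motifs in 25 (69.4%), against 8.61%. The E2F letters TTTCCCGC, TTTGGCGC, TTTCGCGC or TTTGCCGC, on both strands, were present in 2 (5.56%), against 2.61% of all genes. A match describes letters only and does not show that a factor binds there.

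The place of the match was narrower than the window. Within 50 bases on either side of the start, TTTGAA or TTCGAA was found for 26 of 36 genes (72.2%), against 6.12% of all genes. The 25 bases just after the start held one in 13 genes (36.1%), against 1.68% of all genes. Of 29 elements near the start, counted by window, 22 read TTTGAA, 6 TTCAAA and 1 TTCGAA on the strand of the gene. Ect2 and Prc1 had overlapping windows, so the same TTTGAA of each was counted once per window. In 24 of the 26 genes, a CCAAT lay upstream of the element, the nearest at a median of 35 bases and a range of 10 to 154. These distances run from first base to first base, and those that cross the start are 1 base too long by the numbering used. Of 20 promoters of S-phase genes, for comparison, 4 held TTTGAA or TTCGAA and 8 held the E2F letters.

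**Figure D4:**
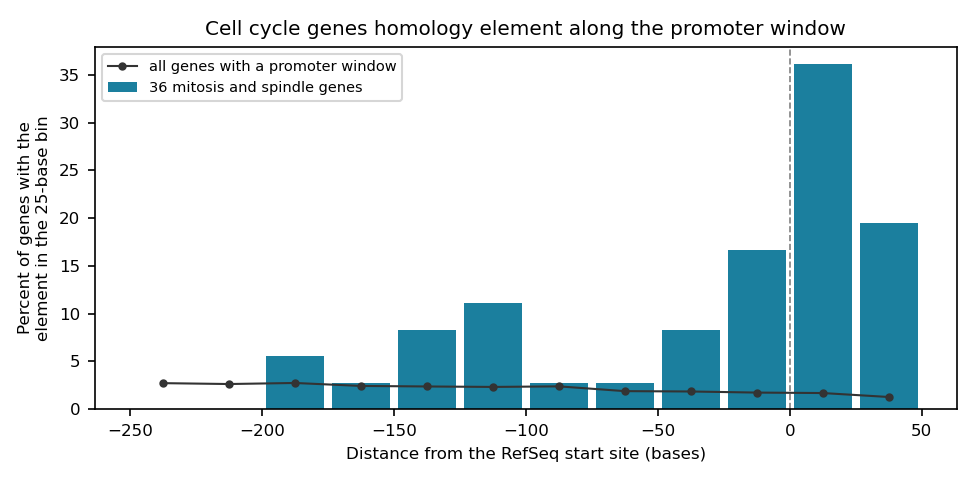
Percentage of genes (vertical axis) with a TTTGAA or TTCGAA on either strand in each bin of 25 bases, by distance in bases from the transcription start, which the dashed line marks. Bars are the 36 mitosis and spindle genes with a promoter window and the line with points is all genes. The highest bar lies just after the start, at 36.1% against 1.68% for all genes.

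Of the 8 promoters with this element near the start whose genes were measured on both arrays and at least 2-fold lower, 7 are printed with the element in capitals, since they join a measured decrease to the shared letters. For Cdc20, the 250 bases before the start are given on the strand of the gene, with TTTGAA and both CCAAT boxes in capitals. The TTTGAA of Cdc20 begins 18 bases before the start, and a CCAAT lies on each side of it. For the other 6 genes, 30 bases around the element are given, which begins 5 bases (Ccnb2), 31 (Cdca3), 6 (Racgap1), 25 (Spc25), 33 (Aurka) and 9 bases (Hmmr) after the start. All coordinates are those of GRCm38.p6.
Cdc20, chr4:118437344-118437593, minus strand: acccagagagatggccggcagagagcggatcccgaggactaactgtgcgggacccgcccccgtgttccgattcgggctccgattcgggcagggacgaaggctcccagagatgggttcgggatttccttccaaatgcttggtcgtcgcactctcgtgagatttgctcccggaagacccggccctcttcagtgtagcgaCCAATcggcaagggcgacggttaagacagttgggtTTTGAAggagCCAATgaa
Ccnb2, chr9:70421533-70421562, minus strand: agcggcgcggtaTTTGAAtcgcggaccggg
Cdca3, chr6:124830194-124830223, plus strand: cgtggagggaagTTTGAAactccgggcttt
Racgap1, chr15:99651634-99651663, minus strand: ctggtgcgtgatTTTGAAccggatctggcg
Spc25, chr2:69206172-69206201, minus strand: ggcggtggagagTTTGAAattgaaagactg
Aurka, chr2:172370521-172370550, minus strand: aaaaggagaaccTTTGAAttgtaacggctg
Hmmr, chr11:40733412-40733441, minus strand: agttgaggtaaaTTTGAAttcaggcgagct

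By the brightest probes, the element near the start did not separate the genes by their change. It was present in 8 of the 10 genes measured on both arrays and at least 2-fold lower, with Birc5 and Ncaph as the exceptions. It was present in 3 of the 5 measured on both arrays and not 2-fold lower, namely Ccnf, Cdk1 and Kif23, and not in Nuf2 or Pttg1. This grouping depends on the probe. By the RefSeq probes, Cdk1 was at least 2.39-fold and Nuf2 2.94-fold lower, and the limit of Kif23, 1.39-fold, did not reach the threshold. Among genes measured in the young sample only, 11 of 16 with a window held the element, and Mki67, which had the largest limit, did not. Ndc80, measured in the aged sample only, held it.

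Other lists of the cell division machinery differed from each other in their counts. Of 56 further mitotic genes that are transcribed in G2, 45 had a value, and 23 were at least 2-fold lower as measured or by limit. On both arrays 23 were measured, 12 of them at least 2-fold lower, with a median of -1.03. Among those at least 2-fold lower, where measured folds and limits cannot be ranked against each other, were Cdc25b, the phosphatase that starts Cdk1 activation, at 192 and 11.1 and at least 10.4-fold lower, and Spc24, the partner of Spc25, 5.97-fold lower (log2 -2.58). Psrc1, a spindle protein, was at least 5.11-fold lower, Kif22, a chromosome-arm kinesin, was 4.45-fold lower (log2 -2.15), and Espl1 (separase), which cleaves cohesin, was 3.71-fold lower (log2 -1.89). Ska3, a kinetochore protein, was the exception, with a dim signal of 20.8 in the young and 37.3 in the aged sample, 2.32-fold higher (log2 1.22).

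In contrast, none of the 15 genes listed for the core of the anaphase-promoting complex was 2-fold different. This list holds core subunits and also Fzr1, an activator of the complex as Cdc20 is, with a log2 difference of 0.07. None of the 20 genes of cohesin and the constitutive spindle was 2-fold different either. All genes of both lists were measured on both arrays. Their medians were 0.31 and 0.06, so Cdc20 and Ube2c were at least 2-fold lower while no core subunit of the complex they serve was. Of the 24 S-phase genes, 21 were measured on both arrays with a median of -0.45, and 9 were at least 2-fold lower as measured or by limit. Among them was Tk1, a thymidine kinase, 6.52-fold lower as the signals stand, with an aged signal of 16.4 that did not pass the background mark. The replicative helicase subunits Mcm5 and Mcm3 were 3.29-fold and 2.54-fold lower. Rrm2, a subunit of ribonucleotide reductase, was 2.77-fold lower, and Chaf1a, a chromatin assembly factor, 2.68-fold lower. Pcna, the sliding clamp of replication, had a log2 difference of 0.05. The median difference of the mitosis and spindle genes measured on both arrays was therefore larger in size than that of the S-phase genes, a comparison for which these arrays give no test.

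The regulators that act on these promoters moved in different directions. Of 18 genes of the DREAM and MuvB complexes and their E2F and pocket protein relatives, 15 were measured on both arrays with a median of 0.03. E2f1, E2f2 and E2f7 are in this list as relatives and not as subunits of these complexes. Lin54, the subunit that binds the TTTGAA element, had a log2 difference of 0.03, E2f4, the E2F of the repressor complex, of 0.24, and Mybl2, the partner of MuvB in G2, of -0.51. E2f1, an activator of S-phase genes, was 3.32-fold lower, E2f2, its relative, was at least 6.05-fold lower, and Rbl1 (p107), a pocket protein of the repressor complex that is itself an E2F target, was at least 4.60-fold lower. E2f7, an atypical E2F that represses transcription, went from 74.1 to 229 and was 4.0-fold higher (log2 2.0). None of the 7 measured G1 cyclins and their kinases and none of the 6 measured CDK inhibitors was 2-fold different, with medians of -0.43 and -0.23. Ccne2 and the CDK inhibitor Cdkn2a, the remaining genes of these lists, had no measured probe, so these arrays give no fold for them.

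**Figure D5:**
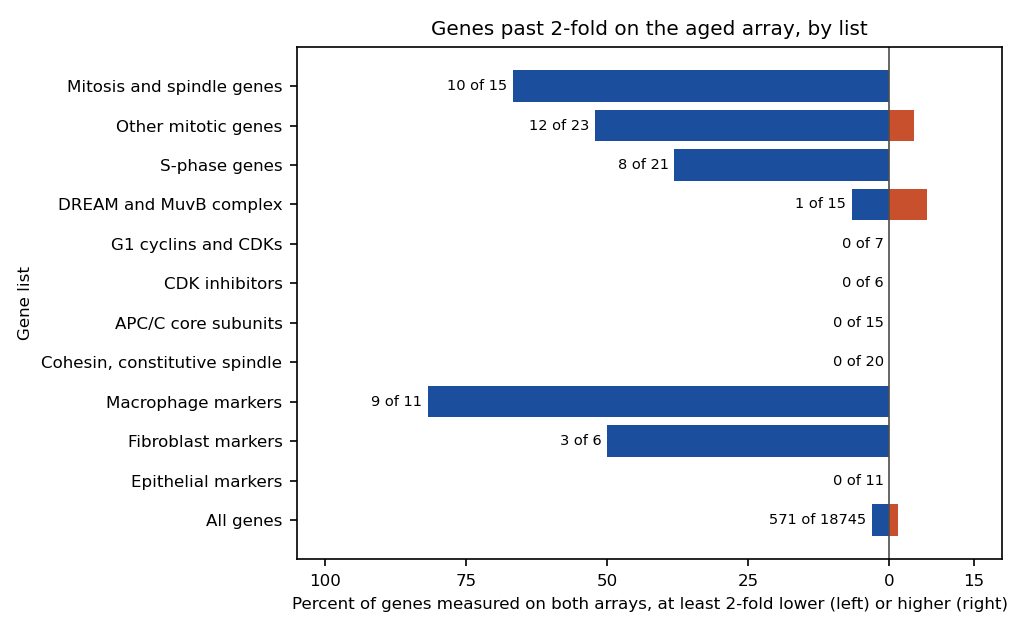
Percentage of the genes measured on both arrays in each list that were at least 2-fold lower (left of 0) or higher (right of 0) in the aged sample, with the count of lower genes beside each bar and 1 array per age. Of the mitosis and spindle genes 10 of 15 were lower, of the macrophage markers 9 of 11, and of the core anaphase-promoting complex, cohesin and epithelial lists none.

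The cells of both samples carried the markers of salivary epithelium, and markers of other cells differed with age beside the mitotic genes. Epcam had a log2 difference of 0.20, none of the 11 epithelial markers measured on both arrays was 2-fold different, and their summed level relative to the 75th percentile was 543 in the young and 603 in the aged sample. Krt5 and Krt14, keratins of basal and myoepithelial cells, had differences of 0.03 and 0.25. Of 9 basal and myoepithelial markers, 2 were at least 2-fold lower, the contractile genes Cnn1 and Myh11, by 4.39-fold and 3.55-fold. Acta2, another contractile gene of myoepithelial cells, had a difference of -0.08. Of 9 acinar markers, Smgc was 3.45-fold lower and Bpifa2 was 2.87-fold higher. Of the 11 macrophage and dendritic cell markers, 9 were at least 2-fold lower and all 11 were below 0, with a median of -1.35, and their summed level went from 201 to 104. Adgre1, the macrophage surface marker, had a log2 difference of -1.35. Of 5 general leukocyte markers, 4 were at least 2-fold lower as measured or by limit, with a summed level of 19.8 and 9.21, although Ptprc, which all leukocytes carry, had a difference of -0.21. Of 7 fibroblast markers, 4 were lower, with a summed level of 19.1 and 9.30. The summed level of the mitosis and spindle genes themselves went from 36 to 17, with Pttg1 as the largest contributor in both samples.

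Markers of lymphocytes showed no common decrease. Of 4 B cell markers measured on both arrays, 1 was lower. Of 7 T cell markers with a value, 2 were at least 2-fold lower, Cd2 by 2.42-fold as measured and Cd3g by a limit of at least 2.06-fold, while Cd3e had a log2 difference of 0.56. The median of the 6 measured on both arrays was 0.31. Of 7 germinal centre B cell markers, which label a rapidly dividing population, 4 were measured and none was 2-fold different. The part of macrophages, fibroblasts or other cells in the difference of the mitotic genes was not tested.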

How the data were processed

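Expression in EpCAM-selected submandibular gland cells of female mice was measured on 1 array per age, both on the same slide. The authors labelled RNA with Cy3 and deposited scanner files from Agilent Feature Extraction 12.0.3.1, which give the processed intensity of each spot (background-subtracted and detrended, with no scaling between arrays), its error and marks for outliers and spots well above background. The authors also deposited a table of normalized values (GeneSpring, 75th percentile), which is a linear ratio of the same intensities to 1 constant per array, found to be 229 and 176, with its direction and log state settled by that match.

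From the intensities, log2 was taken and each array's 75th percentile over 59305 non-control spots was subtracted. Spots marked as outliers were dropped and the remaining spots of each probe averaged. A probe had to pass the background mark on 1 array or both, and each gene was represented by its brightest such probe (mean log2 over both arrays). The threshold was 2-fold, as in the methods. Where 1 array was not well above background, a lower limit of the fold was given. It equals the plain fold where the dim value lay above that array's lowest measured signal. Names came from the RefSeq accessions in the files, of which 33762 of 56597 probes matched a GRCm38.p6 table used for names only, and otherwise from the files. Probe coordinates are those of the files (mm9), and promoters are RefSeq sequences on GRCm38.p6. Of the other lists, genes were named where at least 2-fold different, at most the 5 largest each way, counting limits and measured folds alike. Lin54, E2f4, Mybl2, Incenp, Pcna, Fzr1, Ccne2, Cdkn2a and a few cell markers were named in addition. Of these, Incenp, Pcna, Fzr1, Ccne2, Cdkn2a and Acta2 were named after their values were seen. Of the many markers past 2-fold, Cnn1, Myh11, Smgc, Bpifa2, Cd2, Cd3g and Adgre1 are named and the others are given as counts. The rule for printing probe sequences called for reference proteins, which were not used here, and probes across an exon junction were taken instead. A few marker values and 1 promoter site are not reported here.

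The members and lists were chosen with earlier results of these data known. With 1 array per age, no test was made and the number of arrays limits the precision. The alternatives numbered 15, of which 1, the brightest RefSeq probe, was added after the data were seen. Calculations used R 4.3.3 with limma 3.58.1 and Python 3.11.15 with numpy 2.4.6, pandas 2.3.3 and matplotlib 3.10.9. On simulated arrays with 200 genes changed by known folds, 100% were called in the right direction. The changed genes were bright and their folds lay clearly beyond 2-fold. This checks the calculation only, and not dim genes, limits or differences near 2-fold.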

Additional observations from a re-analysis of the deposited data

How the results depend on the processing

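No count or median of the mitosis and spindle genes reversed under the alternatives. Of single genes, Pttg1, Kif23 and Nuf2, all close to 0, changed sign on the spike-in controls, to -0.19, -0.15 and -0.06. Pttg1 also did with quantile normalization (-0.15), loess (-0.24) and normexp (-0.02), and Pttg1 and Kif23 with the percentile over probes measured on both arrays (-0.06 and -0.02), while the RefSeq probes of Kif23 and Nuf2 gave -2.38, with the aged value at background, and -1.56. The count of mitosis and spindle genes at least 2-fold lower as measured or by limit was 30, and it moved to 16 with normexp background correction and to 10 when only genes measured on both arrays were kept. Normexp adds an offset of 50 that compresses differences of dim genes by construction, and the count of all genes lower fell from 1098 to 297 with it. The 10 genes lower on both arrays became 6 at a 3-fold threshold. Centring on the median, quantile normalization and a 1.5-fold threshold each gave 1 gene higher in place of 0, which was Ndc80. The median difference of genes measured on both arrays, -1.35, was -1.59 on the spike-in controls, -1.02 with normexp and -1.81 with the mean of a gene's probes. Over all 39 genes with a value, the same median is a description only, since 23 of them were at background in the aged sample: with those values as they stand it was -3.19, then -3.43, -0.75 and -2.96, and -1.77 with dim values raised to the lowest measured signal. The 23 other mitotic genes lower became 4 with normexp and 12 when measured on both arrays, the 9 S-phase genes became 3 with normexp, and the 3 lower genes of the other 5 lists became 5 on the spike-in controls, 0 with normexp and 1 when measured on both arrays. Taking the brightest RefSeq probe gave 32 genes lower and a median of -1.56. Over all genes, the split of lower and higher was 1098 and 539, 867 and 802 when centred on the median, and 1584 and 352 on the spike-in controls, scalings that moved the median of all genes from 0.06 to 0.23 and -0.19. No paired analysis was possible because each age had 1 array, and for the same reason no array could be left out.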
